A study of Mus musculus with 18 samples.

Results

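The genes described here are 33 interferon-stimulated and antigen presentation genes, chosen by name and measured in cultured primary mouse hepatocytes that received interleukin-6 (IL-6) and then hepatocyte growth factor (HGF). Each gene was represented by its brightest probe set, by the mean over all 18 arrays, and 31 of the 33 were measured among 18193 genes. The only probe set of Isg15 also carried the name of another gene, and no probe set was named Ifi44, so neither has a value here.

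Hepatocytes came from male C57BL/6N mice aged 8 to 12 weeks, from 1 animal or from a pool of up to 3, and only preparations with a viability over 70% were used. They attached for 4 h on collagen I at subconfluence, spent 24 h in serum-free medium with 100 nM dexamethasone, and were then starved for 4 h in medium without it. All groups shared this culture. Unstimulated control dishes came from -5 h, from the start at 0 h, and from 4, 8, 12 and 24 h, dishes with 40 ng/ml recombinant human IL-6 at 1, 2, 3 and 4 h, and dishes that also received 40 ng/ml recombinant mouse HGF from 4 h on at 5, 6, 7, 8, 9, 10, 12 and 24 h. The hours place the control at -5 h before the starvation, while dexamethasone was still in the medium.

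Each condition and hour was 1 Affymetrix array, so the hours of a stimulus stood in for replicates. No label says that the dishes came from separate cultures, and a p-value here reflects no more than how these dishes varied. Dishes with IL-6 alone after 4 h, or with HGF alone, were not analysed here, so HGF and a longer time in IL-6 cannot be told apart. A lower signal from fewer cells of a type and from less RNA per cell cannot be told apart in such bulk samples. Values are deposited log2 signals, in which 1 unit is a doubling, and a signal of one gene is not set against that of another.

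Type I interferons act through a receptor and Janus kinases to activate the factor ISGF3, which contains STAT2 and IRF9 and binds interferon-stimulated response elements (ISRE) in the promoters of antiviral genes. Interferon gamma acts through gamma-activated sites (GAS), and IL-6 forms STAT3 dimers that bind closely related sites. In the liver these programmes restrict viruses and intracellular parasites and raise the presentation of peptides on class I molecules, while IL-6 is best known for starting the acute phase response.

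Promoter windows were searched on both strands for the ISRE core, GAAA and GAAA again with any 2 bases between them, and the GAS core TTCNNNGAA, where N is any base. Interferon-stimulated genes are known for such sites, so a high share goes with how the genes were listed. RefSeq windows of GRCm38.p6, from 250 bases before to 50 bases after each start, were at hand for 26 of the 33 genes, as 30 windows. The ISRE core occurred in 15 of these 30 windows (50%), beside 3.44% of all 32851 windows, and the GAS core in 6 of 30 (20%), beside 8.3%. The 250 bases before the start are shown for 9 genes on which the results below turn, with matches in capitals. The coordinates are chr19:34640639-34640888 on the plus strand for Ifit1, chr19:34583279-34583528 (plus) for Ifit3 and chr12:26456453-26456702 (minus) for Rsad2.
Ifit1: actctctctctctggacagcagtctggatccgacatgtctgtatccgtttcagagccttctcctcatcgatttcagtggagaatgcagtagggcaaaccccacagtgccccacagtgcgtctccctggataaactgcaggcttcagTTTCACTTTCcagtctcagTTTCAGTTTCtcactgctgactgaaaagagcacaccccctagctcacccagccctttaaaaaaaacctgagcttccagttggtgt
Ifit3: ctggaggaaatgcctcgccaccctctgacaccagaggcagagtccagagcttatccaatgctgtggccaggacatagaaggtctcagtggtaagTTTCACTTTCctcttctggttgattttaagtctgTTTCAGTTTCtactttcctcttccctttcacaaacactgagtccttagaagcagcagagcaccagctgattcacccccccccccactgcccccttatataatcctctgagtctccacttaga
Rsad2: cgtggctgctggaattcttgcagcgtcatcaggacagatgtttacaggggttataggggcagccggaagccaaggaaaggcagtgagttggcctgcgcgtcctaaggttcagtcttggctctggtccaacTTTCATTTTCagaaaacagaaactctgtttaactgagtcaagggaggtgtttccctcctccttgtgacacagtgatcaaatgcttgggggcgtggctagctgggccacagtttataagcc

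Ifit1 held ISRE cores that began 104 and 85 bases before the start, Ifit3 at 156 and 122, and Rsad2 at 120, all on the opposite strand. Ifit2 at chr19:34550444-34550693 (plus) held only a GAS core at 241 bases before the start, and Oasl1 at chr5:114922990-114923239 (plus) held neither core, which says only that these letters are not in the window. A second window of Ifit2 held neither core.
Ifit2: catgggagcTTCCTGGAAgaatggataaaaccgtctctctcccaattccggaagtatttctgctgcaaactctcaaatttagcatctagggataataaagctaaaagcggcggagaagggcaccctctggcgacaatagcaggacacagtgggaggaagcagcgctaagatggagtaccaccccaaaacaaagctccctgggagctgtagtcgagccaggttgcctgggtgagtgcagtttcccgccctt
Oasl1: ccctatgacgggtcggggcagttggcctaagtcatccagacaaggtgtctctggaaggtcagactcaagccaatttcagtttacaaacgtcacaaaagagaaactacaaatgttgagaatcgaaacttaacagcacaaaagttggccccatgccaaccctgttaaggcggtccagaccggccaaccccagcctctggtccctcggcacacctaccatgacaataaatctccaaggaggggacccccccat

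Among the transcription factors, Stat2 at chr10:128270248-128270497 (plus) held an ISRE core at 222 bases before the start and Irf1 at chr11:53769764-53770013 (plus) a GAS core at 90. The chemokine gene Cxcl10 at chr5:92348890-92349139 (minus) held an ISRE core at 213 bases, and Igtp at chr11:58199306-58199555 (plus) a GAS core at 45 and an ISRE core at 34. A further window of Irf1 held neither core.
Stat2: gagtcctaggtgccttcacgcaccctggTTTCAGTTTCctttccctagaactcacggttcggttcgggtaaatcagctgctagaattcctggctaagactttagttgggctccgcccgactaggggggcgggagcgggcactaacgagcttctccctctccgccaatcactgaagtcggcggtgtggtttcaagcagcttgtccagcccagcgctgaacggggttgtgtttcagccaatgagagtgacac
Irf1: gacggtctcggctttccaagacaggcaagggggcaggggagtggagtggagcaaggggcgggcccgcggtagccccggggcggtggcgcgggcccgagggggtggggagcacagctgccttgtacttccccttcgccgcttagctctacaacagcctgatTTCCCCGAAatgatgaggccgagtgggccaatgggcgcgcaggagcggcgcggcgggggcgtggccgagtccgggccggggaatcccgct
Cxcl10: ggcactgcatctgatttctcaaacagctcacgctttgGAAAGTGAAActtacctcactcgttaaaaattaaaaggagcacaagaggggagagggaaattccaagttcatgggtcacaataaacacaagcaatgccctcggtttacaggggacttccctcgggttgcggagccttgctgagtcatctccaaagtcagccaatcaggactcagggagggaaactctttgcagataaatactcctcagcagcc
Igtp: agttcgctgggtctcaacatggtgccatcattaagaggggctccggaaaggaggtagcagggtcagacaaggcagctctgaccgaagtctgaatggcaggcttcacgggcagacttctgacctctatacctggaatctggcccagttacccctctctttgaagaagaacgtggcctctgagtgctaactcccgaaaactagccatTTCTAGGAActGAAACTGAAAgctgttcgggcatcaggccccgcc

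The 8 measured hepatocyte markers had mean signals between 11.94 and 13.10 on the arrays, and at the median gene of that list the mean signal lay above 99.2% of all genes. The 15 Kupffer cell markers, those of resident liver macrophages, were also measurable, with a list mean between 6.70 and 7.43, while 4 of them (Cd163, Timd4, Ptprc and Cybb) lay below the 40th percentile of mean signal. Of the 31 interferon response genes only Mx1, which is defective in common laboratory strains such as C57BL/6, lay below that percentile. The 9 measured interferon genes of 18 listed had a list mean between 4.04 and 4.29 on the arrays from 0 h on, below the 40th percentile of 5.87.

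The first comparison asked what IL-6 alone did over 1 to 4 h, against controls at 0 and 4 h. None of the 31 genes passed the test (limma, Benjamini-Hochberg adjusted p under 0.05 over all genes), and 0.022% of all genes were called higher and 0% lower. At an unadjusted p under 0.05, 1 was higher and 0 lower, beside 1.73% and 1.87% of all genes. Socs3, the feedback inhibitor of IL-6 signalling, stood at 11.09, 10.80, 10.89 and 10.69 under IL-6 against 7.60 and 7.12 in the controls and was 11.4-fold higher (log2 difference 3.51 ± 0.32 SE, adjusted p = 2.44e-05 by limma). The median difference of the interferon response genes was -0.09 log2, beside -0.01 over all genes. Of the 31 differences 23 were negative, beside 53.3% of all genes.

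Iigp1, an interferon-inducible GTPase that attacks the vacuoles of intracellular parasites, read 10.96, 11.07, 11.76 and 11.70 at 1, 2, 3 and 4 h of IL-6. The controls read 9.88 at 0 h and 10.66 at 4 h. All 4 stimulated dishes lay above both controls, which held for 1 of the 31 genes and for 6.28% of all genes. The log2 difference was 1.10 ± 0.31 SE, a 2.14-fold higher signal, with an unadjusted p of 0.00239 and an adjusted p of 0.988 in limma. Against all 5 controls, among which the signal climbed to 11.23 at 24 h, the difference was 0.58 ± 0.28 SE.

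Stat2, the subunit of ISGF3 that carries its activation domain, read 8.63, 8.95, 9.19 and 8.90 under IL-6 and 8.71 and 8.15 in the controls. Its 1 h value lay between the controls and the other 3 values lay above them, a log2 difference of 0.49 ± 0.25 SE. Irf1, a transcription factor induced through GAS sites, read 9.80, 9.61, 9.70 and 9.28 under IL-6 and 9.31 and 9.19 in the controls. It was highest at 1 h and back within the controls at 4 h (0.35 ± 0.17 SE). Irf9 and Irf7, the DNA-binding subunit of ISGF3 and the main amplifier of interferon production, differed by 0.05 and 0.00 log2.

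The antiviral effectors pointed the other way. All 13 had a negative difference, beside 53.3% of all genes, with a median of -0.18 log2. The range was from -0.32 (Oasl1) to -0.03 (Oas2), and none passed the test. All were set against the same controls at 0 and 4 h, so their signs are not separate observations. Against all 5 controls the sign did not hold for Rsad2 (0.22), Mx2 (0.03) and Oas2 (0.00), over 1 and 2 h alone not for Mx2 (0.05), and over 3 and 4 h alone not for Parp14 (0.18), Oas2 (0.05) and Ifit1 (0.01). Usp18, which shuts down signalling at the type I interferon receptor, read 9.69, 9.74, 9.97 and 9.90 under IL-6, all below the controls at 10.13 and 10.20. Its difference was -0.34 ± 0.22 SE, and -0.70 ± 0.20 SE against all 5 controls, with adjusted p-values of 1 and 0.19 in limma. Usp18, Ifit3, Oas1a and Mx1 were the 4 genes with every IL-6 dish below both controls, beside 7.82% of all genes. The Kupffer cell markers moved alongside, with 14 of 15 differences negative, a median of -0.52 log2 and no gene past the test, and a list mean of 6.76 to 6.92 under IL-6 against 7.43 and 7.22 in the controls. Their part in the effector values was not tested.

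**Figure D1:**
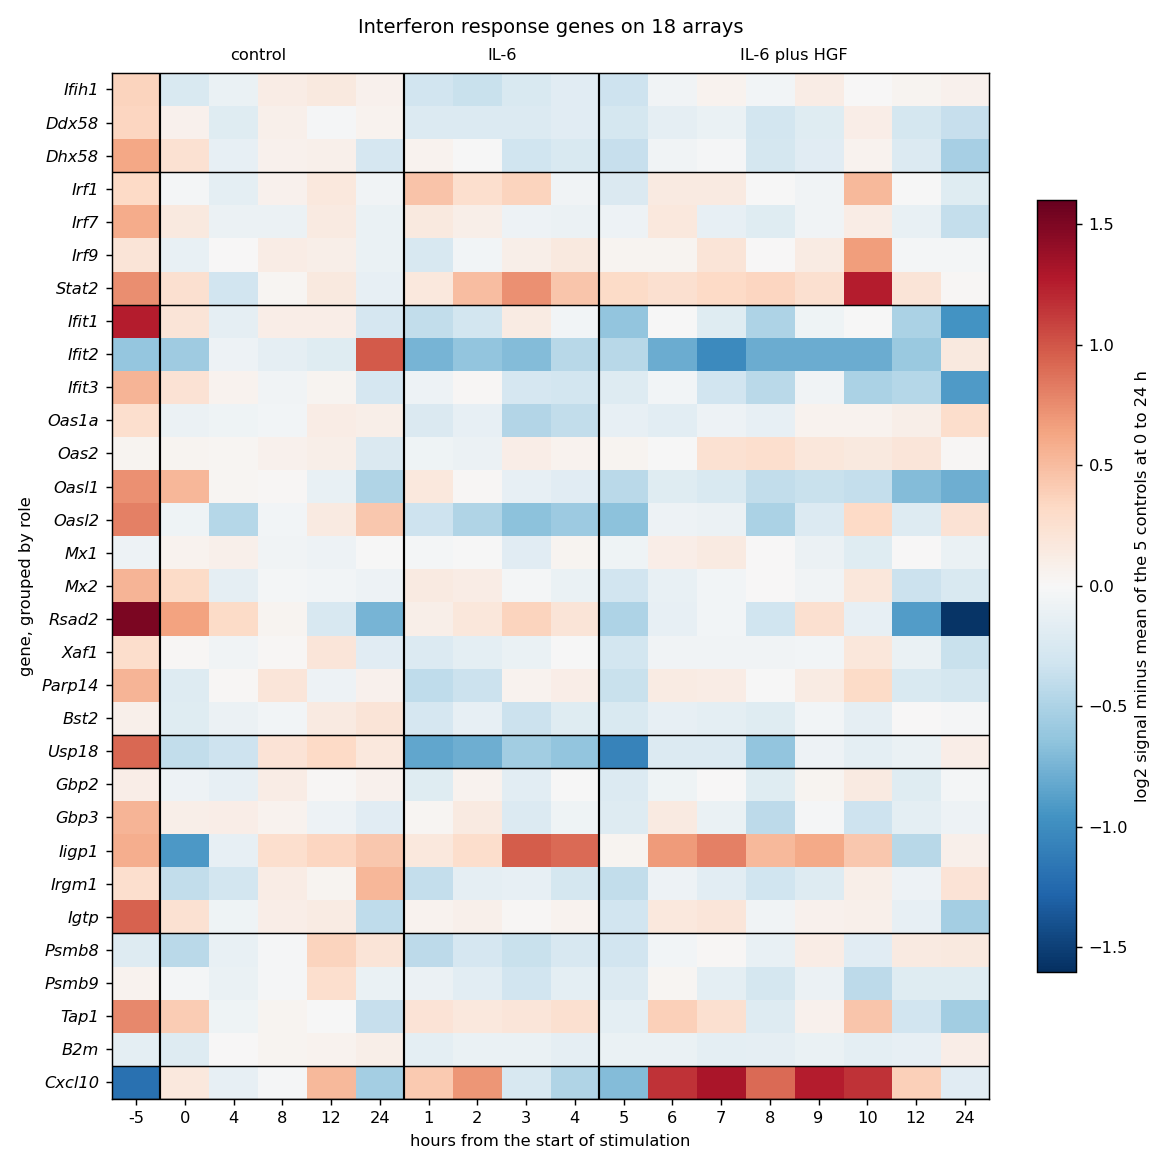
Log2 signal of 31 interferon response genes (rows, grouped by role with lines between sensors, transcription factors, antiviral effectors, feedback, GTPases, antigen presentation and chemokine) on 18 arrays (columns, by stimulus and hour), as the difference from the mean of the 5 controls at 0 to 24 h. The control at -5 h is red in most rows, the IL-6 plus HGF array at 5 h is mostly blue, and the array at 24 h of IL-6 plus HGF is bluest for Rsad2, Ifit1 and Ifit3.

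The second comparison set IL-6 plus HGF against control at 8, 12 and 24 h, the hours measured in both, with the hour as a block. Of the 31 genes, 7 were lower (22.6%, beside 6.46% of all genes called lower) and 0 higher (beside 2.53% called higher). The genes were chosen with earlier results of these data known, so shares beside those of all genes are not independent of that choice. In limma 16 were lower and 1 higher at an unadjusted p under 0.05, beside 14.5% and 10.4% of all genes. The median difference was -0.21 log2, beside 0.01 over all genes. The signal was lower in all 3 pairs for 21 genes (67.7%, beside 24.6% of all genes) and higher in all 3 for Stat2 and Oas2 (6.45%, beside 23.6%). Socs3 was 5.78-fold higher in the same pairs (2.53 ± 0.12 SE, adjusted p = 0.00102 by limma).

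The IFIT proteins bind foreign RNA and block its translation, and all of the 3 measured were lower. Ifit1 read 7.65, 7.65 and 7.28 in the controls at 8, 12 and 24 h and 7.05, 7.04 and 6.59 under IL-6 plus HGF. At these hours the groups did not overlap, and the signal was 1.55-fold lower (-0.64 ± 0.07 SE, adjusted p = 0.00587 by limma). Over all hours they did, with up to 7.54 under IL-6 plus HGF and controls from 7.28. How many of all genes lack overlap at these hours was not counted. Ifit3 read 7.44, 7.55 and 7.23 in the controls and 7.07, 7.04 and 6.59 with the stimulus, again without overlap at these hours. It was 1.42-fold lower (-0.51 ± 0.08 SE, adjusted p = 0.0171 by limma), while its stimulated dishes reached 7.46 at 6 h.

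Ifit2 had another course. It read 7.34, 7.30 and 8.47 in the controls and 6.70, 6.89 and 7.65 under IL-6 plus HGF. It was highest at 24 h in both groups, so they overlapped across hours but not within an hour, and the signal was 1.54-fold lower (-0.62 ± 0.10 SE, adjusted p = 0.0144 by limma). Its printed window differs from those of Ifit1 and Ifit3 in holding no ISRE core, and whether this bears on the course was not tested.

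Rsad2 encodes viperin, an enzyme that makes a chain terminator of viral RNA synthesis. It read 9.03, 8.73 and 8.25 in the controls and 8.67, 8.10 and 7.42 with the stimulus. Both groups fell with the hour, the stimulated one lay lower at each, and the mean was 1.52-fold lower (-0.61 ± 0.10 SE, adjusted p = 0.0186 by limma). Its 3 probe sets gave differences of -0.52, -0.64 and -0.61 log2.

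Oasl1, an OAS-like protein that in mice restrains translation of Irf7, read 9.51, 9.37 and 9.01 in the controls and 9.09, 8.79 and 8.71 with the stimulus. It was 1.35-fold lower (-0.43 ± 0.08 SE, adjusted p = 0.0279 by limma), with the stimulated 8 h value just above the control at 24 h. Oasl2, its relative, differed by -0.34 ± 0.08 SE and missed the threshold with an adjusted p of 0.0543. The OAS enzymes, which make the second messenger that activates RNase L, did not follow: Oas1a differed by 0.03 ± 0.08 SE and Oas2 by 0.18 ± 0.07 SE.

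Of the 3 cytosolic RNA sensors 2 were lower. Ddx58, which encodes RIG-I, read 9.87, 9.77 and 9.84 in the controls and 9.50, 9.51 and 9.42 with the stimulus. The signal was 1.27-fold lower (-0.35 ± 0.08 SE, adjusted p = 0.0384 by limma), while the stimulated dish at 10 h read 9.90. Dhx58, which encodes the regulatory helicase LGP2, read 8.17, 8.18 and 7.83 against 7.82, 7.88 and 7.56 and was 1.24-fold lower (-0.31 ± 0.07 SE, adjusted p = 0.0491). Ifih1, which encodes the sensor MDA5, differed by -0.10 ± 0.08 SE. The other 2 probe sets of Ddx58, both dim, differed by 0.30 and -0.52 log2, and with the mean of its probe sets the gene had an adjusted p of 0.145. After quantile normalization neither sensor passed, with -0.32 log2 and an adjusted p of 0.0551 for Ddx58 and -0.25 and 0.0902 for Dhx58.

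Of the transcription factors none passed the test. Stat2 read 8.80, 8.66 and 8.48 under IL-6 plus HGF and 8.49, 8.62 and 8.33 in the controls, higher in each pair by 0.31, 0.05 and 0.15 log2 (mean 0.17 ± 0.08 SE, adjusted p = 0.261 by limma). Irf7, Irf1 and Irf9 differed by -0.21, -0.13 and -0.06 log2. Usp18 lay below control by 0.85 log2 at 8 h and 0.42 at 12 h, while at 24 h the pair nearly met at 10.63 and 10.70 (mean -0.45 ± 0.14 SE, adjusted p = 0.113).

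The 5 interferon-inducible GTPases had differences from -0.30 (Iigp1) to -0.15 (Gbp3), none past the test. Iigp1 was above control at 8 h by 0.24 log2 and below it at 12 h by 0.79 and at 24 h by 0.35, so its pairs disagreed in sign. The antigen presentation genes lay closer together. Psmb9 and Psmb8 (immunoproteasome subunits), Tap1 (the peptide transporter) and B2m (the class I light chain) differed by -0.27, -0.12, -0.24 and -0.12 log2, none past the test. Cxcl10, a chemokine that draws T cells, was 0.92 log2 above control at 8 h, 0.14 below at 12 h and 0.37 above at 24 h (mean 0.38 ± 0.18 SE, adjusted p = 0.251 by limma).

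**Figure D2:**
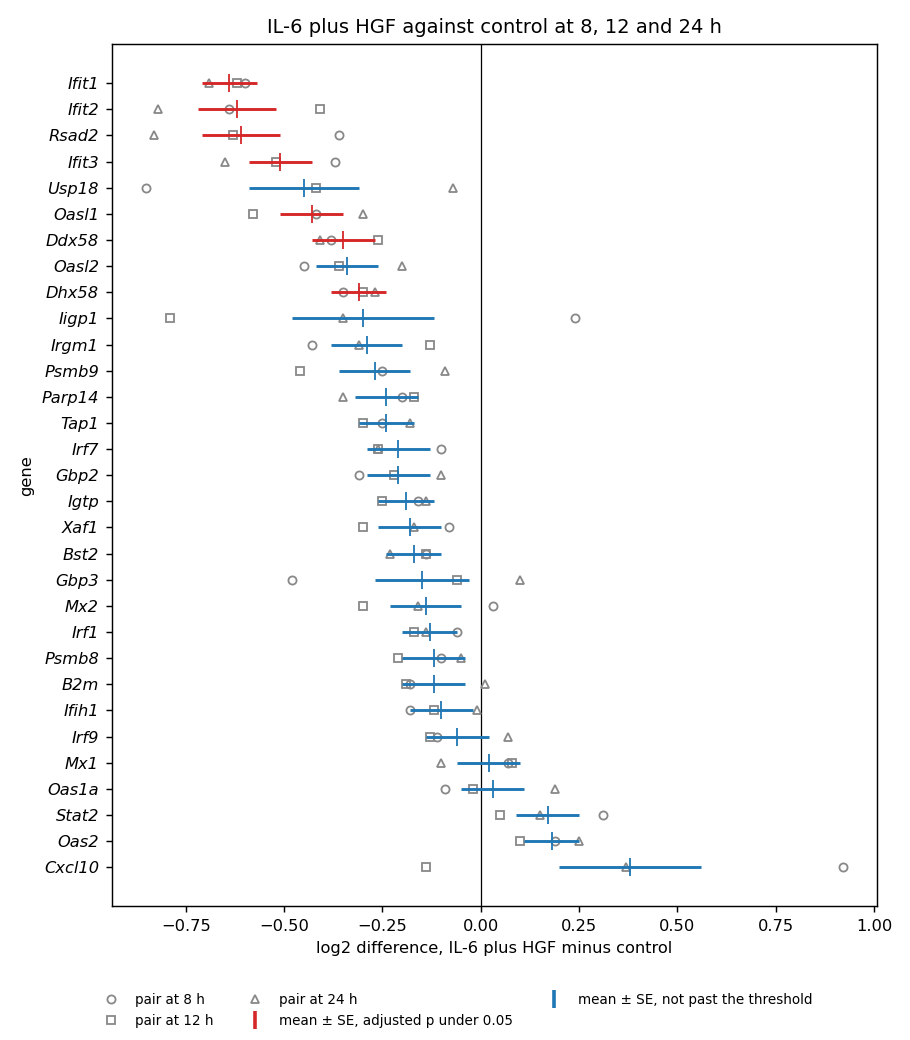
Log2 difference of IL-6 plus HGF minus control (x axis) for 31 genes (y axis), with 1 open symbol for each pair at 8, 12 and 24 h and a bar for the mean ± SE of the blocked limma fit. The 7 genes past the threshold, in red, lie between -0.64 (Ifit1) and -0.31 (Dhx58), and Cxcl10, Iigp1 and Usp18 have the widest spread between pairs.

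The calls rested on few arrays. Without the hour as a block 0 of 31 genes passed in limma (6 were lower and 0 higher at an unadjusted p under 0.05), beside 0.517% of all genes called lower. Over the 4 cells of 17 arrays, whose hours are not matched, only Ifit2 passed (beside 6% of all genes), and the difference was -0.09 log2 for Rsad2, -0.34 for Ifit1, -0.27 for Ifit3, -0.24 for Oasl1 and -0.16 for Dhx58. Without the pair at 8 h Ifit1, Ifit3 and Rsad2 passed, without 12 h Ifit1 and Ifit2, and without 24 h Ifit1 and Usp18, beside 3.38%, 2.24% and 3.03% of all genes called lower.

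Markers of several cell types were mostly lower in the same pairs. Of all genes 47.4% had a negative difference, 6.46% were called lower and 2.53% higher. Of the Kupffer cell markers 14 of 15 were negative (median -0.17 log2, 1 passed). So were 8 of 10 liver endothelial markers (median -0.15, 2 passed, Oit3 and Clec4g) and 7 of 8 hepatocyte markers (median -0.24, 3 passed lower and 1 higher). The Kupffer cell list mean was 6.80 to 6.96 with the stimulus and 6.85 to 7.17 in the controls at these hours, and the endothelial one 6.63 to 6.93 against 6.94 to 7.10. Of 14 glucocorticoid targets 3 were lower (Tat, Klf9 and Dusp1), and the nuclear RNA Malat1 was higher by 1.56 ± 0.21 SE (adjusted p = 0.00901 by limma). The part of any of these in the result was not tested.

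Other genes of the pathway were counted from lists, beside the same 6.46% of all genes called lower and 2.53% called higher. Of 9 measured receptor and Janus kinase genes, 1 was lower at the matched hours and 0 higher: Ifngr1, the ligand-binding chain of the interferon gamma receptor (-0.73 ± 0.10 SE, adjusted p = 0.00982 by limma). Of 18 STAT, IRF and SOCS genes outside the main list, Stat3 was higher (0.50 ± 0.08 SE, adjusted p = 0.0170) beside Socs3, and Irf5 was lower (-0.35 ± 0.08 SE, adjusted p = 0.0446). Of 11 sensing and adaptor genes, Zbp1, a sensor of Z-form nucleic acid, was higher (0.43 ± 0.08 SE), while Ddx60 (-0.53 ± 0.11 SE) and the RNA receptor gene Tlr3 (-0.39 ± 0.09 SE) were lower.

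Of 53 further interferon-stimulated genes measured, 4 were lower and 1 higher, with a median of -0.07 log2, counts near the 6.46% and 2.53% of all genes. The lower ones were the guanylate-binding GTPase gene Gbp6 (-0.82 ± 0.08 SE, adjusted p = 0.00386 by limma), Znfx1 (-0.46 ± 0.09 SE), Lgals3bp (-0.36 ± 0.07 SE) and Ifi27l2a, and the higher one was Slfn2 (0.47 ± 0.08 SE). Of 20 further antigen presentation genes and 9 interferon genes none passed in limma, with medians of -0.02 and 0.11 log2.

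The third comparison asked whether the difference from control after HGF was added differed from that before it. None of the 31 genes passed in limma (beside 0.011% of all genes in each direction), with 2 lower and 0 higher at an unadjusted p under 0.05, beside 4.46% and 3.34% of all genes. These were Iigp1, at -1.11 ± 0.39 SE with an adjusted p of 0.432, and Irgm1, a regulatory GTPase of autophagy, at -0.46 ± 0.20 SE with 0.590. The hours before and after differ, and so do the controls, at 0 and 4 h for the first term and at 8 to 24 h for the second. A drift of the controls therefore enters the contrast. For Iigp1 they averaged 10.27 at 0 and 4 h and 11.14 at 8 to 24 h.

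The single hours showed a common movement at 5 h, 1 h after HGF was added, which was singled out after the values were seen. From the IL-6 array at 4 h to the array at 5 h 27 of 31 genes went down, beside 48.7% of all genes. The median step was -0.13 log2 (all genes 0.00). From 5 h to 6 h 26 went up, beside 54% of all genes (median 0.26, all genes 0.02). The 5 h value lay below both neighbours for 24 genes (77.4%), beside 34.5% of all genes. A like movement lay at 8 h, which is among the matched hours. From 7 h to 8 h 26 genes went down, beside 52.4% of all genes (median -0.15 log2, all genes -0.01). From 8 h to 9 h 25 went up, beside 52.6% (median 0.13, all genes 0.01). The largest median step, -0.28 log2 (all genes 0.03), lay between 10 h and the matched hour 12 h. There 19 genes went down, beside 44.5% of all genes. Each hour is 1 array and these movements have no replicate, so they were not tested.

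Cxcl10 made the largest of the steps from 5 h to 6 h. It read 8.64, 8.92, 7.96 and 7.74 at 1, 2, 3 and 4 h of IL-6, 7.52 at 5 h, and then 9.38, 9.52, 9.12, 9.47 and 9.38 at 6, 7, 8, 9 and 10 h, before 8.60 at 12 h and 8.04 at 24 h. The 5 controls lay between 7.67 and 8.74, below all 5 values from 6 to 10 h. The step from 5 h to 6 h was 1.86 log2, and no other of the 18193 genes made a step as high. Averaged over the hours, its difference from control after HGF exceeded that before it by 0.60 ± 0.63 SE.

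Usp18 read 9.90 at 4 h, 9.46 at 5 h and 10.31 at 6 h, and Iigp1 read 11.70, 10.84 and 11.48. Rsad2 read 9.20, 8.49 and 8.86, and Ifit1 7.51, 6.92 and 7.54. For each of these 4 the 5 h value lay below both neighbours. The 7 exceptions were Irf7, Ifit3, Oas1a and B2m, which were higher at 5 h than at 4 h by 0.02, 0.08, 0.26 and 0.05 log2, and Ifit2, Oas2 and Stat2, which were lower again at 6 h, with steps of -0.34, -0.04 and -0.05. The hepatocyte marker mean was also low at 5 h, 12.74 between 12.98 and 12.95, and the Kupffer cell mean was high, 7.02 between 6.84 and 6.76. Their part was not tested.

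**Figure D3:**
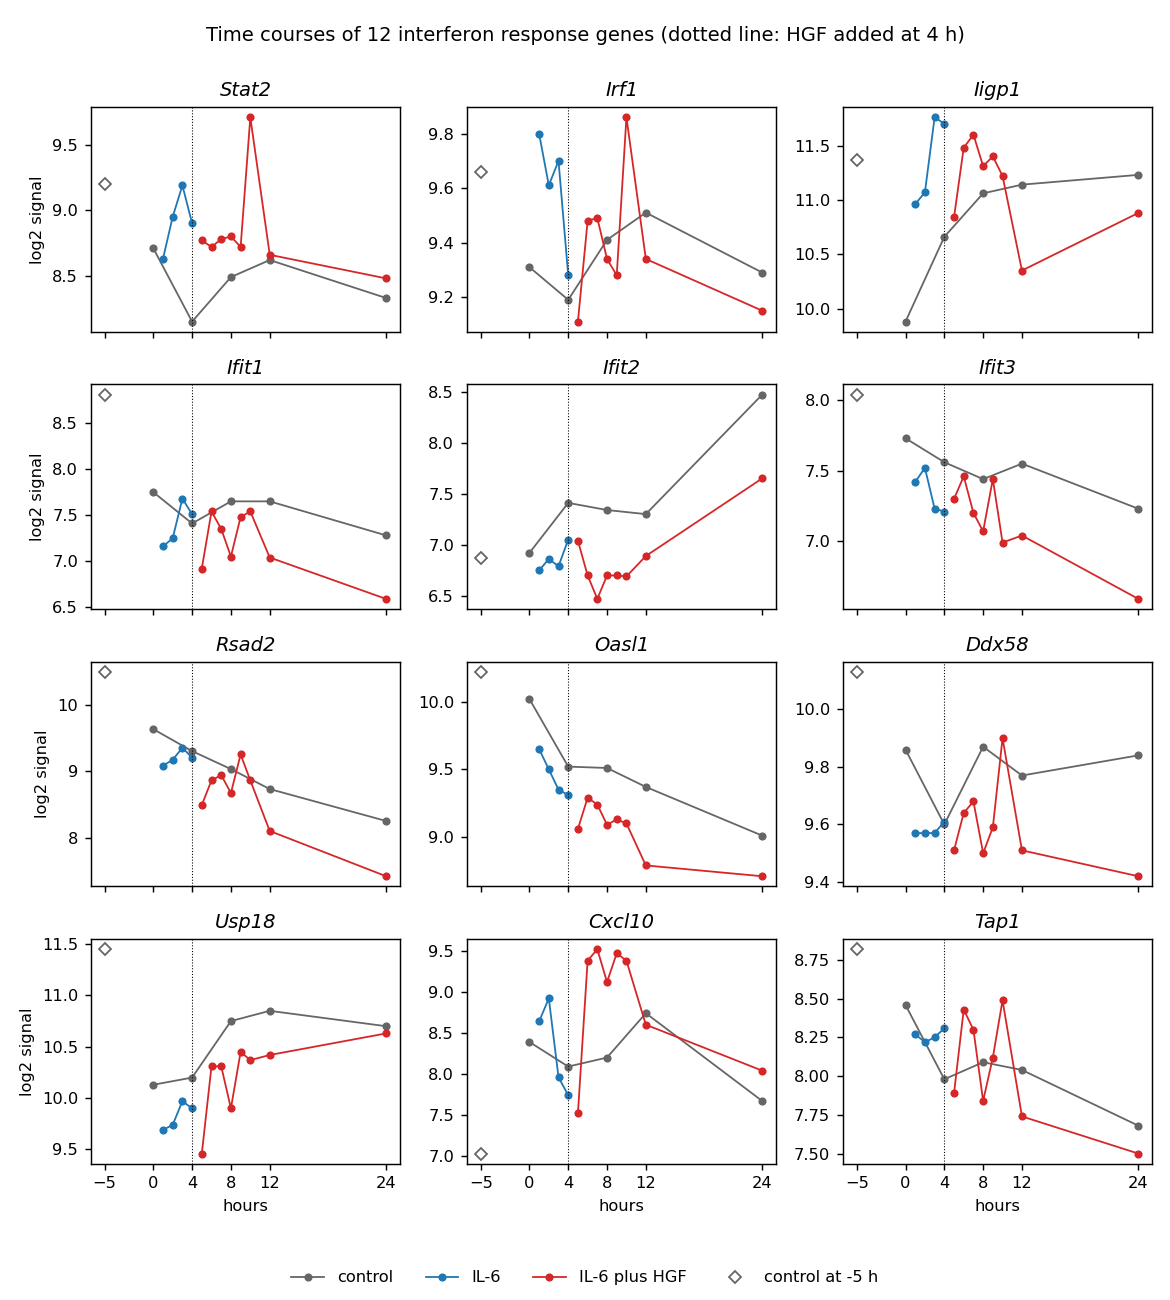
Log2 signal (y axis) against hours (x axis) for 12 interferon response genes, with 1 point per array, lines joining the arrays of control, IL-6 and IL-6 plus HGF, an open diamond for the control at -5 h and a dotted line where HGF was added. Cxcl10 rises between 5 and 6 h and is near the controls again at 12 h, Rsad2 and Ifit1 end at 7.42 and 6.59 at 24 h, and the 10 h array stands out for Stat2 and Irf1.

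The array at 10 h of IL-6 plus HGF stood apart. Against the mean of 9 h and 12 h it was higher by 1.63 log2 for Malat1 and by 2.36 for Neat1, which encode nuclear long non-coding RNAs. It gave the highest of the 8 values for 12 of 31 interferon response genes (38.7%, beside 18.4% of all genes). Stat2 read 9.71 there, with the other 7 arrays between 8.48 and 8.80, and Irf9 read 9.08, with the others between 8.38 and 8.62. Relative to 9 and 12 h the differences were 1.02 and 0.61 log2 for these genes, 0.56 for Tap1, 0.55 for Irf1 and 0.53 for Oasl2. Whether they share a source with Malat1 and Neat1 was not tested.

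Over 5 to 24 h of IL-6 plus HGF, slopes were fitted per doubling of the hours. Of the 31 genes 1 rose and 1 fell (3.23% each, beside 6.27% and 4.84% of all genes). Oas1a had 8.74 as its lowest value at 6 h, a median of 8.89 and 9.19 as its highest at 24 h, a slope of 0.21 ± 0.05 SE (adjusted p = 0.0215 by limma). Ifit3 had its highest value, 7.46, at 6 h, a median of 7.14 and its lowest, 6.59, at 24 h, a slope of -0.34 ± 0.08 SE (adjusted p = 0.0206). Neither passed without the array at 6 h or that at 24 h, and without the 5 h array 6 genes fell (Cxcl10, Ifit1, Ifit3, Igtp, Oasl1 and Rsad2) and 2 rose (Ifit2 and Oas1a).

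Rsad2 read 8.49 at 5 h and 9.25 at 9 h, its highest, and only then fell, to 7.42 at 24 h. Its slope over 5 to 24 h was -0.59 ± 0.19 SE (adjusted p = 0.0705 by limma). Usp18 sloped the other way, from 9.46 at 5 h, its lowest, to 10.63 at 24 h, its highest, with a median of 10.34 (0.38 ± 0.13 SE, adjusted p = 0.0851). In controls 1 gene rose (3.23%, beside 2.14% of all genes) and 2 fell (6.45%, beside 1.47%), per doubling of the hours plus 1. Iigp1 rose from 9.88 at 0 h through 10.66, 11.06 and 11.14 to 11.23 at 24 h (slope 0.31 ± 0.04 SE, adjusted p = 0.0178). With hours in place of their logarithm it did not pass (adjusted p = 0.0881).

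Rsad2 fell in the controls from 9.63 through 9.30, 9.03 and 8.73 to 8.25 (-0.28 ± 0.05 SE, adjusted p = 0.0321 by limma), and Oasl1 from 10.02 through 9.52, 9.51 and 9.37 to 9.01 (-0.20 ± 0.03 SE, adjusted p = 0.0301). The control values of these genes thus kept their direction over the hours without any stimulus, though Oasl1 barely changed from 4 h to 8 h. Without the control at 4 h or the one at 8 h none of the 3 passed, without that at 12 h the 2 falls did not, and without that at 0 h only the fall of Rsad2 did. The slopes under IL-6 plus HGF and in control differed past the threshold for 0 of 31 genes in limma (beside 0.0385% of all genes higher and 0.0605% lower), and 0 had an unadjusted p under 0.05, beside 2.85% and 3.44% of all genes. Iigp1 had a slope difference of -0.46 ± 0.23 SE and Ifit3 of -0.24 ± 0.11 SE.

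The last comparison set the 1 control at -5 h against the 5 later controls. None of the 31 genes passed in limma (beside 0% of all genes in each direction), with 14 higher and 1 lower at an unadjusted p under 0.05, beside 2.62% and 2.98% of all genes. The spread behind these p-values and errors comes from the later controls alone. The median difference was 0.36 log2, beside 0.01 over all genes. The -5 h value lay above all 5 later controls for 21 genes (67.7%, beside 19.9% of all genes) and below all of them for 3 (9.68%, beside 17.9%).

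Rsad2 read 10.49 at -5 h, beside 8.25 to 9.63 later, a log2 difference of 1.50 ± 0.45 SE or 2.84-fold. Ifit1 read 8.81, beside 7.28 to 7.75 (1.27 ± 0.19 SE, 2.40-fold, unadjusted p = 0.000286 and adjusted p = 0.607 by limma). Igtp, a GTPase that guards host membranes, read 11.26, beside 9.91 to 10.55 (0.95 ± 0.23 SE). All 3 lay above every later control.

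Usp18, Oasl2, Tap1 and Stat2 were higher than every later control too, with differences of 0.92, 0.82, 0.77 and 0.75 log2. Cxcl10 went against the rest, with 7.03 at -5 h, beside 7.67 to 8.74 later (-1.18 ± 0.34 SE). Ifit2 at 6.87 and Mx1 at 3.39 were the other genes below all later controls, both by little. B2m and Psmb8 had negative differences of -0.16 and -0.20 log2 within the later range.

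Other lists moved at -5 h as well. All 14 glucocorticoid target genes had positive differences (median 0.67 log2), among them Fkbp5 at 0.89 ± 0.12 SE and Tsc22d3 at 0.78 ± 0.14 SE, as did all 8 hepatocyte markers (median 0.21). Of the 15 Kupffer cell markers 11 were negative (median -0.34), with Ptprc, the pan-leukocyte marker, at -1.58 ± 0.24 SE. Of 53 further interferon-stimulated genes 34 were positive (median 0.16), with Tor3a at 0.69 ± 0.13 SE. None of these lists had a gene past the test, and their part in the values above was not tested. The array differs from the later ones in medium, time in culture and 1 dish at once, which cannot be told apart.

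**Figure D4:**
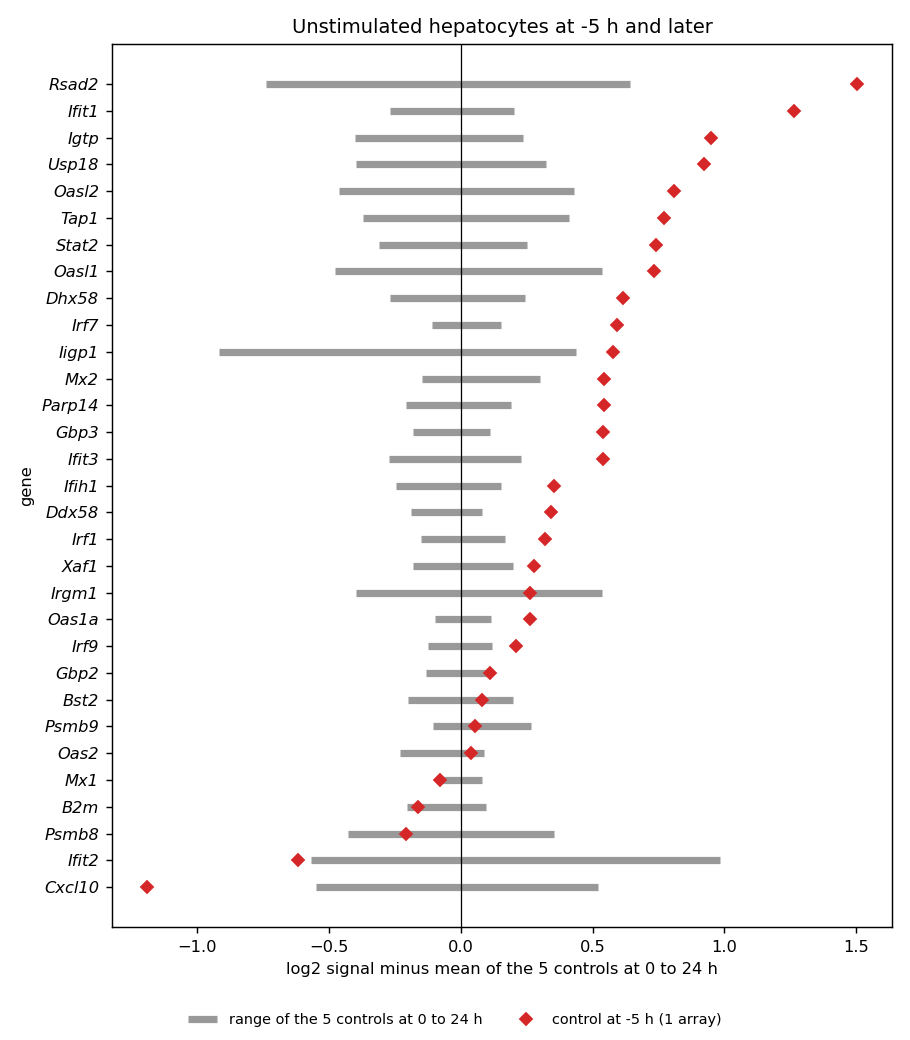
Log2 signal of the control at -5 h (diamonds) for 31 genes (y axis), relative to the mean of the 5 controls at 0 to 24 h (x axis), with grey bars for the range of those 5 controls. The -5 h value lies to the right of the bar for 21 genes, farthest for Rsad2 at 1.50, and to the left for Cxcl10 and Ifit2, with Mx1 at the left end of its bar.

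Read against the sequences, 4 of the 6 genes with a window that were lower at the matched hours held an ISRE core (Ifit1, Ifit3, Rsad2 and Ddx58, in which it begins at base 3 of the transcript), as did 10 of the 18 other measured genes with one. Stat2, which holds the core, had a mean difference of 0.17 ± 0.08 SE (adjusted p = 0.261 by limma), and Oasl1, which does not, was lower. Any link between the core and the direction of a gene was not tested.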

How the data were processed

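Signals of 45101 probe sets on 18 arrays were used, all columns belonging to a sample (0 were left over). The authors deposited log2 signals, per the labels; how they were summarised and normalised is not given in the sources used here. Sorted values of the arrays deviated from their mean by at most 0.118, array medians lay between 5.47 and 5.57, and each array correlated with the others at 0.985 to 0.994 on average, so no further scaling was applied. After 64 control probe sets, 932 with several gene symbols and 9211 with none were set aside, the probe set with the highest mean stood for each of 18193 genes.

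All fits used lmFit and eBayes of limma 3.58.1 under R 4.3.3 over all genes, with Benjamini-Hochberg adjustment and a threshold of 0.05. The IL-6 and change-of-effect contrasts used 17 arrays in 4 cells (control at 0 and 4 h, control at 8 to 24 h, IL-6, IL-6 plus HGF). The matched hours used 6 arrays with the hour as a block, paired by the labelled hour. Replicate numbers only follow the order of the hours and pair nothing. The comparisons share control arrays. The fits were tested on simulated data. Alternatives were quantile normalization, median centring, a filter on dim genes at the 40th percentile, the probe set mean per gene, robust variances with an intensity trend, other choices of arrays and of the time scale, and leaving out each array or pair. Leaving out the 10 h array was added after the values were seen. All listed genes were named by role. Of the pathway lists, counts and up to 4 genes with the smallest p were named. The genes and lists were chosen with earlier results of these data known.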

Additional observations from a re-analysis of the deposited data

Results flagged for a closer look

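In 9 of 93 groups of 4 to 8 arrays 1 value stood far from the rest of their own group, by the gap to the nearest value relative to the range of the group. Chance alone sets off this criterion in about 1 of 20 groups. Both ISGF3 subunit genes were highest at 10 h of IL-6 plus HGF, Stat2 at 9.71 (next 8.80) and Irf9 at 9.08 (next 8.62). Ifih1 was lowest at 5 h of IL-6 plus HGF, at 9.37 (next 9.65), and B2m highest at 24 h, at 14.11 (next 13.90). Under IL-6 alone Ddx58 was highest at 4 h, at 9.61, although the next value was 9.57 and the whole range is small. Among the controls, Mx2 was highest at 0 h at 6.77 (next 6.44), B2m lowest at 0 h at 13.80 (next 14.01), Psmb9 highest at 12 h at 8.49 (next 8.20) and Oas2 lowest at 24 h at 6.28 (next 6.54).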

How the results depend on the processing

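At the matched hours 7 genes were lower; 0 were without the hour as a block (no replicate block), 1 over the 4 cells of 17 arrays, and 2 to 3 when a pair was left out. Quantile normalization called 5 (not Ddx58 and Dhx58) and the other scalings, filters and summaries 7 to 9. Under IL-6 plus HGF 1 gene rose and 1 fell over time; these became 2 and 2 with the filter at the 40th percentile and with an intensity trend and robust variance, 1 and 2 with the mean of all probe sets, 2 and 3 with hours in place of their logarithm, and 0 and 0 without the array at 24 h. Leaving out 1 array gave 0 to 2 rising and 0 to 6 falling. In controls 1 rose and 2 fell; 2 rose with the intensity trend, with the mean of all probe sets (1 fell, not Rsad2) and with hours (Ifit2 and Irgm1, not Iigp1), and leaving out 1 array gave 0 to 1 rising and 0 to 2 falling. The median of all genes moved by under 0.1 log2 with either scaling. No named value changed sign past its threshold in any alternative run. The number of arrays, 1 per condition and hour, limits the precision, and the cause of these changes was not tested.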
